A study of Homo sapiens with 6 samples.

Results

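Interleukins and the subunits of their receptors were read in an established line of human colon cancer, HCT-15, either left untreated or exposed to a drug, 5-aza-2'-deoxycytidine. Cells incorporate this analogue of deoxycytidine when they copy their DNA, where it traps DNA methyltransferases, so that methylation is lost as cells divide. All probe sets whose RefSeq transcript belongs to a gene named IL plus a number were taken, including receptor subunits and the shared chain IL6ST, and CXCL8 was not. This gave 42 probe sets, beside 1217 others on the array, for 39 of the 927 genes that could be named. They were 23 secreted factors, IL36RN among them, and 16 receptor subunits. Total RNA was measured on 6 arrays, 3 of untreated cells and 3 of cells given 5-aza-2'-deoxycytidine. The sources used here state no dose, duration or vehicle, and do not say whether replicates were separate cultures, so the p-values reflect only how far these arrays vary, and that variation may be technical. All values are of a single cell line.

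Interleukins are secreted proteins through which cells, above all leukocytes, signal to each other, and epithelial cells both make some of them and carry receptors for several. Most bind receptors built from a chain particular to the factor and a chain that several factors share. IL2RG is the common gamma chain, and IL6ST, also called gp130, is the shared chain of the IL-6 family. These receptors have no kinase of their own and signal through JAK kinases and STAT factors, whereas receptors of the IL-1 and IL-17 families signal through adaptor proteins to NF-kB.

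Array medians lay between 5.81 and 5.92 on the log2 scale, and arrays of one group correlated at 0.9974 to 0.9987 against 0.9817 to 0.9844 across groups. The title of untreated replicate 3 says treated, whereas its source name and treatment entry, by which it was grouped, say untreated. Titles of the treated arrays also carry the word control. Pairs of untreated arrays, replicate 3 included, correlated at 0.9978 to 0.9982. Interleukin calls that change without untreated replicate 3 are given without it too. Calls of marker genes and of related cytokines are not given gene by gene without it. Of genes that mark colon epithelium, 6 of 18 listed could be read. Their summed level on the linear scale was 1396 to 1546 in untreated and 1312 to 1353 in treated arrays. Of their 8 probe sets 1 was called higher, for the membrane mucin MUC13 (7.97 to 8.93), and 4 lower, for the intestinal galectin LGALS4 (9.54 to 9.03), FUT2 and both of FUT3. MUC2, the secreted intestinal mucin, and B3GNT6 were not called. Of 25 leukocyte markers 10 could be read, and their sum was 301.1 to 316 in untreated and 326 to 345 in treated arrays. Of these genes 2 were called higher, CD33 (5.58 to 6.15) and KLRD1 (5.56 to 5.82), and 1 lower, CD22, with 23.1% of their probe sets called. The other probe set of KLRD1 was not called (3.44 to 3.46). Of 16 stromal and endothelial markers 7 could be read, with sums of 120.2 to 139 and 119 to 131. Of these PECAM1 was called higher, though its groups overlapped, and PDGFRB lower, which is 28.6% of their probe sets. Over the whole array 34.8% of probe sets were called, and 62.5% of those for colon epithelium. The part of these marker levels in the results on interleukins was not tested.

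Treatment was followed by changes in a minority of the interleukin genes. The receptor subunits IL4R, IL2RB and IL2RG rose, with IL6R and the IL-12 subunit gene IL12A. The ligand genes IL7 and IL17D fell, as did the receptor subunits IL3RA and IL6ST. IL7 was 2.12-fold lower, the only one of the 42 probe sets to change by 2-fold or more, and IL4R was 1.84-fold higher. In total RNA, fewer cells that express a gene and less of its RNA in each cell cannot be told apart. In limma's test, adjusted by the Benjamini-Hochberg method over every probe set of the array, 5 of 42 rose and 4 fell at an adjusted p under 0.05. Over the whole array 34.8% of probe sets passed, 18.0% higher and 16.8% lower, against 21.4% of the interleukin probe sets, 11.9% higher and 9.52% lower.

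Groups did not overlap in 14 of the 42 (33.3%), against 46.1% of all probe sets. The median log2 difference, treated minus untreated, was 0.01 over the 42 and -0.01 over all probe sets. The median of its absolute size was 0.10 and 0.15. Most interleukin probe sets were dim: 29 of the 42 lay among the 420 of lowest mean value. In that dim class 5 of 29 were called, those of IL7, IL2RB, IL12A, IL6R and IL6ST, against 18.3% of all its probe sets. Among the others 4 of 13 were called, against 43.0%. IL2RG is 1 of these 4 only through its treated values. Its untreated mean, 4.88, lay under the limit of the dim class, 4.90, and its treated mean was 5.25. Rescaling changed the split of calls. After quantile normalization 3 were higher and 10 lower, and with array medians set equal 4 were higher and 8 lower. Over the whole array these settings gave 220 higher and 265 lower, and 197 and 311, against 227 and 211 in the reported fit. Without treated replicate 1 the interleukin calls were 3 higher and 3 lower, beside 198 and 181 over the array. Without untreated replicate 3 they were 6 and 4, beside 225 and 215.

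**Figure D1:**
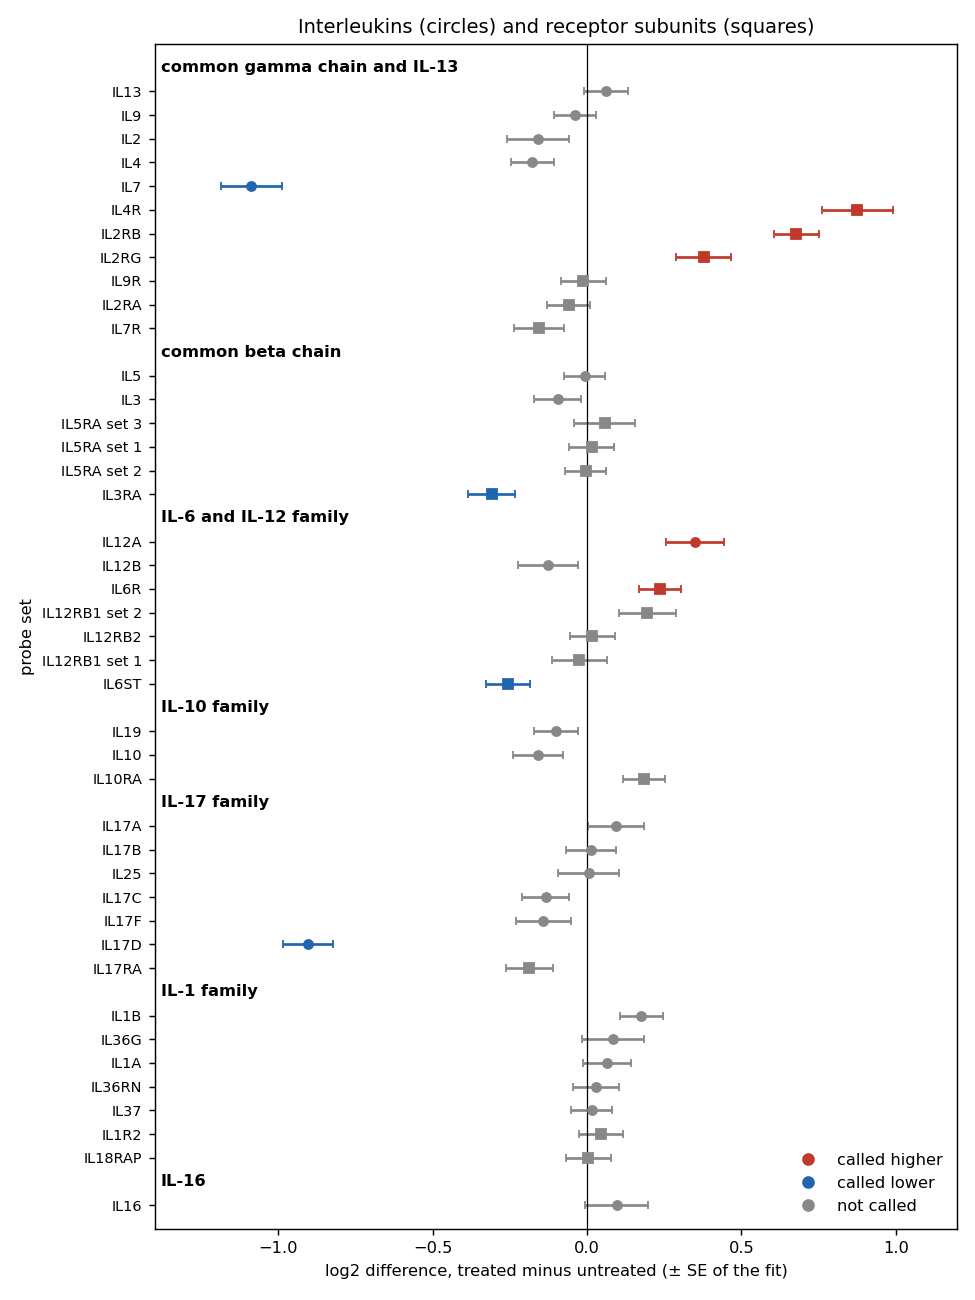
Log2 difference, treated minus untreated, for each of the 42 probe sets (points, with the standard error of limma's fit as bars), grouped by receptor family, with ligands as circles and receptor subunits as squares. IL4R, IL2RB, IL2RG, IL12A and IL6R lie to the right in red, IL7, IL17D, IL3RA and IL6ST to the left in blue, and the 33 grey points lie between -0.19 and 0.20.

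The drug acts on DNA methylation, which in human cells lies mainly at CpG dinucleotides. The 250 bases before the transcription start are shown for 2 receptor genes that rose and 2 genes that fell, a CpG-rich and a CpG-poor example of each, chosen after the counts were seen. They are RefSeq promoter windows on GRCh38.p14, printed 5′ to 3′ on the gene's strand, with each CG in capitals. The windows are chr16:27313724-27313973 on the plus strand for IL4R, chrX:71111578-71111827 on the minus strand for IL2RG, chr13:20702842-20703091 on the plus strand for IL17D and chr5:55994964-55995213 on the minus strand for IL6ST. IL17D has 4 listed starts, and the most upstream is shown.
IL4R: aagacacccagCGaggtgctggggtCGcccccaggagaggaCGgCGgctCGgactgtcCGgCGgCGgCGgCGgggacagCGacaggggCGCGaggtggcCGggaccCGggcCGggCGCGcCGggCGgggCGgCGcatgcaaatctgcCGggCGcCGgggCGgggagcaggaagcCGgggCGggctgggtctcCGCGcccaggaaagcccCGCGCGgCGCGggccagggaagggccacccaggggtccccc
IL2RG: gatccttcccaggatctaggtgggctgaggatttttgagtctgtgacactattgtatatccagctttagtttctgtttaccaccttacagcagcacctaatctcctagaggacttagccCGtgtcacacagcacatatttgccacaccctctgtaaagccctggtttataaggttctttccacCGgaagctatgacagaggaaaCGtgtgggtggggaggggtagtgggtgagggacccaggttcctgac
IL17D: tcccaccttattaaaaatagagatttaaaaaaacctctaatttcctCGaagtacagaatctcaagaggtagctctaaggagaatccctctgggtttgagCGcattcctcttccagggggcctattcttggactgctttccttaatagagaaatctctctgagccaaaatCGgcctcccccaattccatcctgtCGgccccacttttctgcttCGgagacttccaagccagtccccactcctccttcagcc
IL6ST: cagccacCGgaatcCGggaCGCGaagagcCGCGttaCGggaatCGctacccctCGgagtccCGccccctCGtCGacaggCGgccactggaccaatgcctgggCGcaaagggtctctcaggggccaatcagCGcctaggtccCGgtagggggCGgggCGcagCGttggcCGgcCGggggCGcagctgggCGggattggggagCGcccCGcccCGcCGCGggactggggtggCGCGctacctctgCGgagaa

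The window of IL4R holds 35 CG and that of IL6ST 31, while IL17D has 5 and IL2RG 3. CG reads the same on both strands. A promoter window was found for 33 of the 39 genes, IL7 and IL2RB not among them, and 90.9% of the 33 held at least 1 CG, against 96.4% of the 727 genes of the array with a window and 93.7% of all 27195 genes in the table. Their median was 4 CG, against 17 and 10. Among the genes that rose the counts were 35 for IL4R, 22 for IL6R, 18 for IL12A and 3 for IL2RG. Among those that fell they were 31 for IL6ST, 5 for IL17D and 4 for IL3RA. The median was 20 over the 4 genes that rose, 5 over the 3 that fell and 2.5 over the 26 uncalled genes. Whether these differ was not tested. The highest uncalled gene, IL13 with 31 at the more upstream of its 2 listed starts, had a log2 difference of 0.06. Methylation itself was not measured, and a count of CG is a description of the letters.

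**Figure D2:**
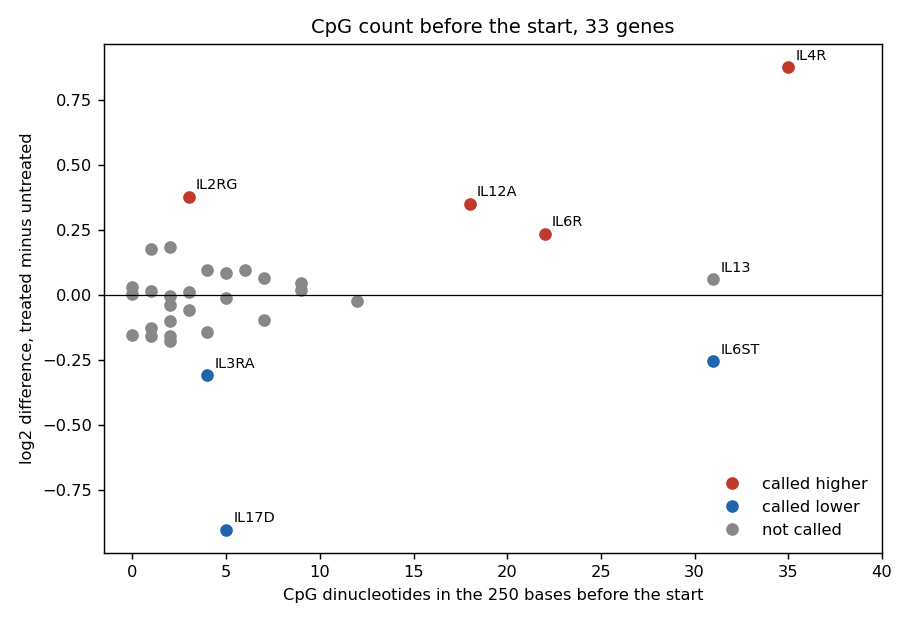
Number of CpG dinucleotides in the 250 bases before the most upstream listed start (horizontal axis) against the log2 difference, treated minus untreated (vertical axis), for 33 genes. Called genes lie at both ends of the horizontal axis in both directions, with IL4R at 35 and IL2RG at 3 above zero and IL6ST at 31 and IL17D at 5 below it.

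The common gamma chain group, in which IL13 was also counted, held the largest rises and the largest fall. IL4R is the chain that binds IL-4 and that also serves the IL-13 receptor. Its log2 values were 7.30, 7.03 and 7.05 in untreated cells and 7.87, 7.88 and 8.26 in treated cells. All 3 treated arrays lay above the untreated ones, with a gap of 0.57 between the groups, and treated replicate 3 was the highest. The log2 difference was 0.88 ± 0.12 (SE, n = 3 per group, adjusted p = 0.000157), and IL4R was called in all 13 alternatives fitted.

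IL2RB is the beta chain of the receptors for IL-2 and IL-15. It read 4.32, 4.26 and 4.22 in untreated and 5.01, 4.86 and 4.96 in treated cells, so the groups were 0.55 apart while each spread by less than that. It was 1.60-fold higher (log2 difference 0.68 ± 0.07, SE, adjusted p = 3.3e-05). IL2RB was among the 420 dimmest probe sets, and without detection calls the size of this fold is uncertain. IL2RG, the chain shared by the receptors for IL-2, IL-4, IL-7 and IL-9 among others, went from 4.84, 4.97 and 4.82 to 5.17, 5.16 and 5.43. The groups were 0.19 apart, and treated replicate 3 again stood highest. The rise was 1.30-fold (0.38 ± 0.09, SE, adjusted p = 0.00674). An ordinary equal-variance test, which does not borrow spread from other probe sets, gave IL2RG an adjusted p = 0.0645, the highest over its alternatives, the lowest being 0.00433.

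The other receptor chains of the group were not called. IL2RA, the alpha chain of the high-affinity IL-2 receptor, had means of 3.34 ± 0.07 and 3.28 ± 0.02 (SD, n = 3), untreated first. IL9R had 5.82 ± 0.03 and 5.80 ± 0.09. IL7R had 3.96 ± 0.10 and 3.81 ± 0.10 with an adjusted p = 0.176, and was called lower under quantile normalization and under median centring. Of the 6 receptor chains in the group, 3 rose and 0 fell, where 18.0% of all probe sets rose and 16.8% fell.

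IL7, a growth factor for lymphocytes that stromal and epithelial cells secrete, showed the largest change of all 42 probe sets. It read 4.71, 5.02 and 4.69 in untreated cells and 3.77, 3.78 and 3.61 in treated cells. The lowest untreated array stood 0.91 above the highest treated one. IL7 was among the 420 dimmest probe sets, and without detection calls the size of its fold is uncertain. The log2 difference was -1.09 ± 0.10 (SE, adjusted p = 1.08e-05), and IL7 was called lower in each of the 12 alternatives that kept it. The other ligands counted in the group, IL2, IL4, IL9 and IL13, had log2 differences of -0.16, -0.18, -0.04 and 0.06. Of these, 0 of the 4 were called, against 34.8% of all probe sets. IL13 was counted here for its use of IL4R, not of the common gamma chain. IL4 read 3.68, 3.79 and 3.70 in untreated and 3.49, 3.56 and 3.60 in treated cells. Its groups did not overlap (adjusted p = 0.079), and 3 alternatives called it lower: quantile normalization (adjusted p = 0.0107), median centring (0.0249) and array weights (0.0352), while its highest value was 0.244.

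**Figure D3:**
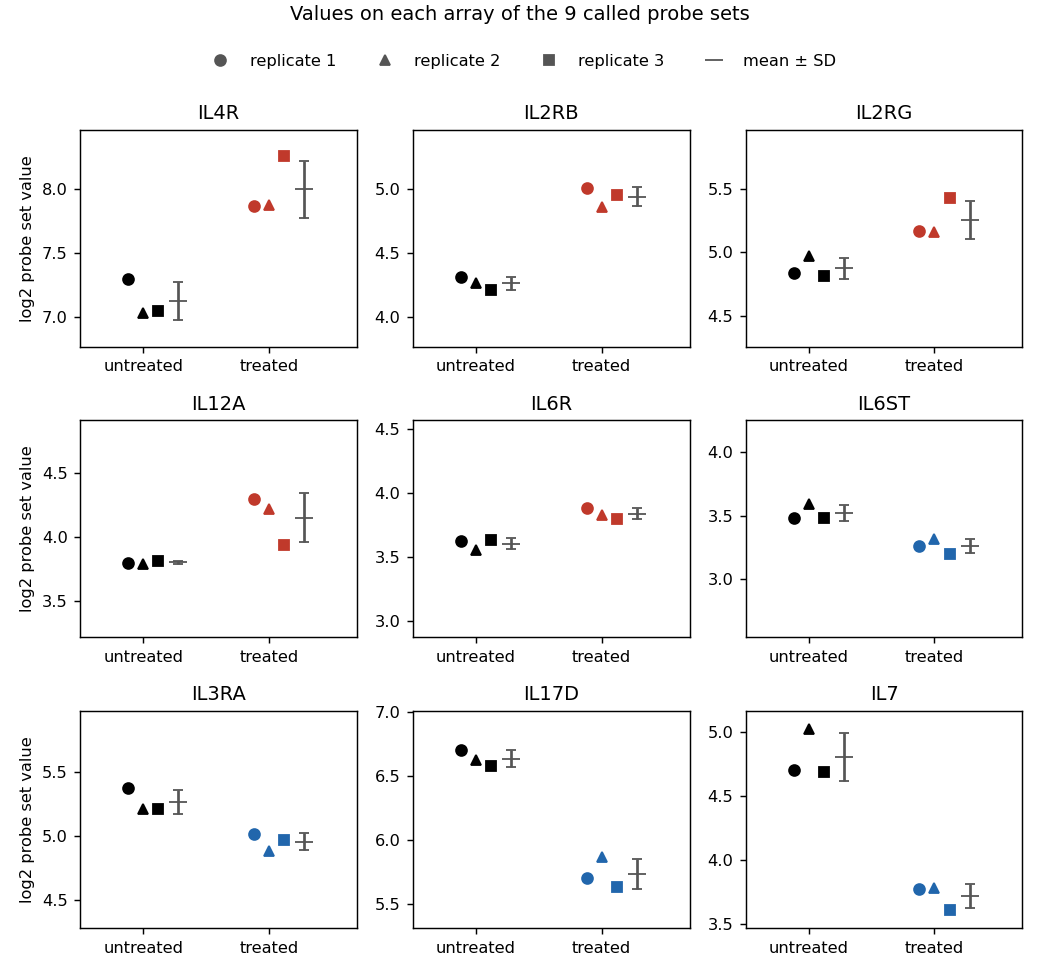
Log2 value on each of the 6 arrays (symbols mark the replicate) with the mean ± SD of each group, for the 9 called probe sets, each panel spanning the same height of log2 units. No panel has overlapping groups, the widest gap being 0.91 for IL7 and the narrowest 0.12 for IL12A.

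In the IL-6 and IL-12 families the receptor chains moved in both directions. IL6R, which binds IL-6, went from 3.62, 3.55 and 3.63 to 3.89, 3.83 and 3.80, and was 1.18-fold higher (log2 difference 0.24 ± 0.07, SE, adjusted p = 0.0193). IL6ST, the chain through which IL-6, LIF, oncostatin M and their relatives signal, went from 3.48, 3.59 and 3.48 to 3.27, 3.32 and 3.20. It was 1.19-fold lower (-0.26 ± 0.07, SE, adjusted p = 0.0159). Both were dim, with groups 0.16 apart.

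Both calls were lost with some arrays left out, at differences of similar size. Without untreated replicate 2 IL6R had a difference of 0.21 (adjusted p = 0.072) and IL6ST of -0.22 (0.0676). Without treated replicate 1 they had 0.21 (0.0852) and -0.26 (0.052). IL6R also missed the threshold after quantile normalization (0.116, its highest value, the lowest being 0.00777) and after median centring (0.0688). The lowest value of IL6ST over its alternatives was 0.00683.

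IL12A encodes the p35 subunit that IL-12 and IL-35 share. It read 3.80, 3.79 and 3.81 in untreated cells and 4.30, 4.22 and 3.94 in treated cells, so that treated replicate 3 lay closer to the untreated arrays than to the other treated ones. The rise was 1.28-fold (log2 difference 0.35 ± 0.09, SE, adjusted p = 0.0129). It missed the threshold without treated replicate 1 (adjusted p = 0.0632), without treated replicate 2 (0.0535), in the ordinary test (0.0965) and after quantile normalization (0.103), and its lowest value was 0.00113. IL12B, the p40 subunit that IL-12 shares with IL-23, had 2.61 ± 0.19 and 2.48 ± 0.07 (SD, n = 3) and was not called.

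The receptor chains for IL-12 were not called. IL12RB2 had a log2 difference of 0.02. IL12RB1 was read by 2 probe sets made for different transcripts, with differences of -0.02 and 0.20. The second of them, at 4.98, 4.70 and 4.65 in untreated and 4.98, 4.94 and 5.00 in treated cells, overlapped between groups through untreated replicate 1, and was called higher when that array was left out.

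IL17D, a member of the IL-17 family, was the other ligand that fell. It read 6.71, 6.62 and 6.58 in untreated cells and 5.70, 5.87 and 5.63 in treated cells, and the groups were 0.71 apart. It was 1.87-fold lower (log2 difference -0.90 ± 0.08, SE, adjusted p = 9.39e-06) and was called in all 13 alternatives fitted.

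Its relatives differed less between the groups. IL17A had a log2 difference of 0.09, IL17B of 0.01, IL17F of -0.14 and IL25, which promotes type 2 responses, of 0.01. None of these was called, but IL17F was called lower under quantile normalization. IL17C, an epithelial member of the family, read 6.51, 6.61 and 6.55 in untreated and 6.46, 6.31 and 6.49 in treated cells, with groups only 0.01 apart (adjusted p = 0.212). IL17RA, the receptor chain that several of these ligands share, read 7.40, 7.45 and 7.34 in untreated and 7.30, 7.10 and 7.23 in treated cells. Its groups were 0.04 apart (adjusted p = 0.086), and it was called lower after median centring (0.0316, the lowest over its alternatives, in a range up to 0.27). Of the 7 genes of the family, 0 were called higher and 1 lower, against 18.0% and 16.8% of all probe sets.

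In the common beta chain group IL3RA, the alpha chain of the IL-3 receptor, fell. It went from 5.37, 5.21 and 5.21 to 5.02, 4.89 and 4.97, which left 0.19 between the groups. It was 1.24-fold lower (log2 difference -0.31 ± 0.08, SE, adjusted p = 0.00897), and its adjusted p stayed at or under 0.0432 over the 13 alternatives. The ligands IL3 and IL5, which act on myeloid cells and on eosinophils, had log2 differences of -0.09 and -0.01. IL5RA was read by 3 probe sets whose differences were at most 0.06 in size. None was called, though 1 of the 3 was called lower under quantile normalization.

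Of the IL-10 family, IL10RA, the ligand-binding chain of the IL-10 receptor, read 4.67, 4.66 and 4.69 in untreated and 4.82, 4.83 and 4.94 in treated cells. The groups were 0.12 apart and the difference was 0.19 ± 0.07 (SE, adjusted p = 0.061). It passed in the ordinary test (0.0384, the lowest over its alternatives, in a range up to 0.276). IL10, an anti-inflammatory cytokine, had 4.14 ± 0.13 and 3.99 ± 0.06 (SD, n = 3), and IL19 had 3.93 ± 0.05 and 3.83 ± 0.07. Neither was called, but IL10 was called lower under quantile normalization and median centring, and IL19 under quantile normalization.

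In the IL-1 family 0 of 7 genes were called, against 34.8% of all probe sets, and 1 of the 7 had an unadjusted p under 0.05. That gene was IL1B, a central inflammatory cytokine, at 4.64, 4.59 and 4.73 in untreated and 4.84, 4.81 and 4.84 in treated cells. Its groups were 0.08 apart (log2 difference 0.18 ± 0.07, SE, adjusted p = 0.0783). It was called higher without untreated replicate 3, the untreated array titled as treated (adjusted p = 0.049), and when arrays were weighted (0.0379). The highest adjusted p of IL1B was 0.269. IL1A had a difference of 0.06 and IL36G of 0.08. The antagonist IL36RN (0.03), the anti-inflammatory IL37 (0.02), the decoy receptor IL1R2 (0.05) and the IL-18 receptor chain IL18RAP (0.00) had differences no larger than their standard errors. IL16, a chemoattractant for CD4+ cells that belongs to none of these families, had a difference of 0.10 ± 0.10 (SE).

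By role, 1 of 23 ligand probe sets rose and 2 fell, and 4 of 19 receptor probe sets rose and 2 fell. These are 13.0% and 31.6% called, against 34.8% of all probe sets. The median absolute log2 difference was 0.10 over the ligands and 0.16 over the receptors, against 0.15 over all. Whether ligands and receptors differ was not tested.

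Related cytokines and receptors that are not named as interleukins were read from lists chosen with earlier results of these data known. Of 40 listed class I and class II cytokines and receptors 20 genes were measured by 27 probe sets, of which 6 rose and 4 fell (37.0% called, against 34.8% of the array). Of the 7 measured genes of this list that act with IL6ST, 4 rose and 3 were not called, where 18.0% of all probe sets rose. This grouping, which leaves out the member IL6R, was made after the values were seen and is no test. LIFR, the chain that joins IL6ST to receive LIF, went from 2.71, 2.44 and 2.55 to 4.30, 3.77 and 4.11, and was 2.82-fold higher (adjusted p = 5.95e-06). Its untreated values lie near the lowest on the array, 2.13, and without detection calls they are not shown to be above background, so the size of this fold is uncertain. CTF1, cardiotrophin 1, read 6.13, 5.83 and 6.23 in untreated and 6.49, 6.52 and 6.75 in treated cells (1.44-fold, adjusted p = 0.00363). The related ligands CLCF1 (0.43) and LIF (0.28) also rose, while OSM (-0.09), the oncostatin M receptor OSMR (0.06) and CNTFR (0.16) were not called. LIF read 7.61, 7.60 and 7.36 in untreated and 7.72, 7.77 and 7.94 in treated cells (adjusted p = 0.0328). Its lowest value was that of untreated replicate 3, the array titled as treated.

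Both chains of the interferon gamma receptor rose, IFNGR1 from 9.05, 9.17 and 9.06 to 9.84, 9.78 and 9.57 (1.56-fold, adjusted p = 0.000174) and IFNGR2 by 0.40. IFNAR1, a chain of the type I interferon receptor, fell from 7.10, 7.24 and 7.05 to 6.66, 6.48 and 6.61 (1.46-fold, adjusted p = 0.000323). EPO (-0.29), 1 of 2 probe sets of IFNAR2 (-0.28) and 1 of 3 probe sets of CSF2RA (-0.43) also fell. The other probe sets of IFNAR2 and CSF2RA had differences of -0.12, -0.04 and -0.06 and were not called.

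Of 25 other cytokines and receptors in the second list 8 were measured by 9 probe sets, of which 3 rose and 0 fell (33.3% called, against 34.8% of the array), and 2 of the 3 rises are of a single gene, CXCL8. KITLG, the stem cell factor, went from 8.15, 8.09 and 8.23 to 9.05, 8.90 and 8.97 (1.77-fold, adjusted p = 1.01e-05). Both probe sets of the neutrophil chemokine CXCL8, made for the same transcript, rose by 0.82 and 0.81. Their untreated means, 2.61 and 3.58, were dim and without detection calls are not shown to be above background. The sizes of these rises are thus uncertain. The CXCL8 receptors CXCR1 and CXCR2 had differences of -0.02 and 0.01. Of 34 listed JAK, STAT and adaptor genes downstream of these receptors 0 were among the named probe sets, so signalling was not analysed here.

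**Figure D4:**
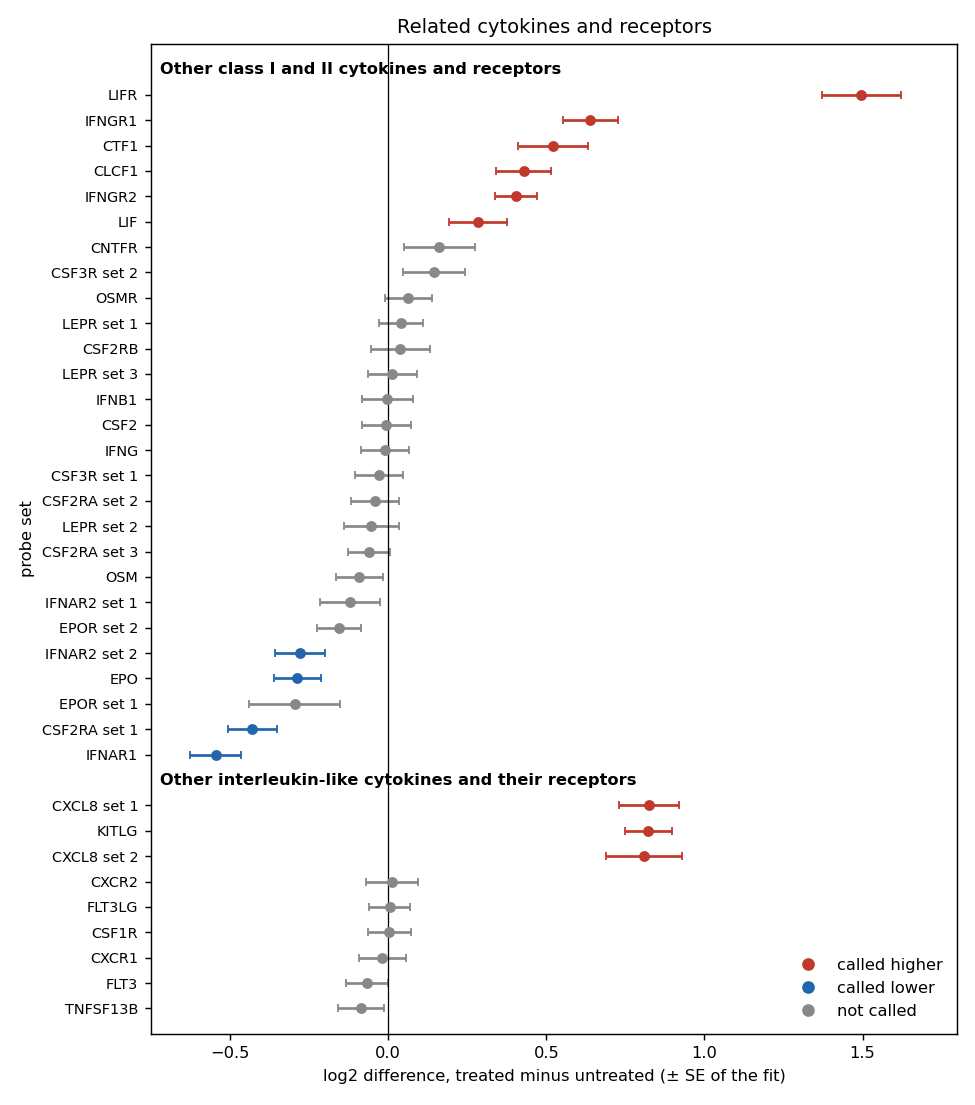
Log2 difference, treated minus untreated, with the standard error of limma's fit, for the 36 probe sets of related cytokines and receptors. LIFR, with dim untreated values, lies farthest to the right, and IFNAR1 farthest to the left at -0.54, with 9 probe sets called higher in red and 4 called lower in blue.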

How the data were processed

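Per the labels' protocols, Trizol was used to extract total RNA, and biotinylated cRNA made from it was put on Affymetrix arrays. The authors deposited log2 values, 1 per probe set and array, summarised with RMA per the submitters' processing notes. The sources used here give neither RMA's version and settings nor a genome build, and the log2 scale was taken from the values. RMA compresses differences between dim probe sets. Scanner files and detection calls were not used here, and 0 columns of values were left unused.

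Probe sets were named through their RefSeq transcript in a RefSeq gene table (GRCh38.p14), which named 1043 of them. The other 216 were not searched for members. Endings of 8 of the 42 member probe sets, those of IL6R, IL6ST, IL4 and IL17RA among them, mark sets that can bind transcripts of more than one gene.

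Treatment was the only term of the model fitted to every probe set in limma 3.58.1 (R 4.3.3; lmFit, eBayes, two-sided, Benjamini-Hochberg over the table), with no filter. Calls need an adjusted p under 0.05, and folds are differences taken out of the log scale. The steps were tested on simulated data. CG dinucleotides were counted in the 250 bases before the most upstream start of each gene. All members are named, and values on each array are given for those called or with groups that do not overlap. Members, lists and tests were chosen with earlier results of these data known, and 1 listed item is not reported here.

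Alternatives were quantile normalization, median centring, leaving out the 420 dimmest probe sets, a trend of spread with intensity, weights for arrays, an ordinary equal-variance test, a block for the replicate number, leaving out 1 array at a time, other thresholds and 1 probe set for each gene.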

Additional observations from a re-analysis of the deposited data

How the results depend on the processing

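Over the whole array, calls at 1.5-fold or more numbered 100 higher and 69 lower, against 227 and 211 at any fold. Quantile normalization gave 220 higher and 265 lower, median centring 197 and 311, and an adjusted p under 0.01 gave 177 and 153. Leaving out the dimmest probe sets gave 168 and 192 of 839, and leaving out 1 array at a time 198 to 225 higher and 171 to 215 lower. Of the interleukin probe sets, 5 higher and 4 lower in the reported fit, quantile normalization gave 3 and 10, median centring 4 and 8, leaving out the dimmest probe sets 2 and 2 of 13, an adjusted p under 0.01 gave 3 and 3, and calls at 1.5-fold or more were 2 and 2 (IL4R and IL2RB, IL7 and IL17D). IL2RG was kept among the 13 only through its treated values. Leaving out 1 array at a time gave 3 to 6 higher and 3 to 4 lower. Of the related genes, 9 higher and 4 lower, the lower calls were 2 at an adjusted p under 0.01. At 1.5-fold or more they were 5 higher and 0 lower, and leaving out 1 array gave 8 to 9 higher and 3 to 5 lower. Without untreated replicate 3 the related genes gave 8 higher and 5 lower. Some settings hold fewer probe sets or arrays. The causes of these changes were not tested.

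None of the 14 interleukin and receptor genes whose groups did not overlap changed direction in any alternative. With the replicate number as a block the interleukin calls were again 5 higher and 4 lower, and 209 and 185 over the array. Same-numbered arrays did not deviate together (correlations of -0.27, 0.04 and -0.11), and 0 of 6 arrays correlated best with their own number, so the numbers were not taken as pairs. With 3 arrays per group and no detection calls, small differences of dim probe sets are the least certain.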
